A study of Mus musculus with 22 samples.

Results

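Cpxm1, Cpxm2, Itgbl1, Ecrg4, Smoc2, Tmem98 and Epha4 are 7 genes whose RNA was higher at 14 d than at 7 d in granulation tissue that grew into viscose cellulose sponge (VCS). They were picked on that rise, as little-studied genes with a large change over the week, by a rule that has no numerical threshold and names no genotype, and they are 7 of 18193 genes with a probe set of their own and 15 of 45037 probe sets tested. RNA was measured on 22 Affymetrix mouse genome arrays, which read the 3' end of transcripts, and each value below is a log2 signal normalized by robust multi-array averaging (RMA), so that a difference of 1 is a doubling. Mmp13-/- tissue, from mice that lack the collagenase MMP-13 in all cells, was compared with wild type (WT) tissue on 3 days (7, 14 and 21) after VCS was placed under the dorsal skin. Each genotype had 3 arrays at 7 d, 4 at 14 d and 4 at 21 d, and the submitters state that a single sample per mouse was profiled. The labels give the strain as a mixed C57BL/6 and 129 background, while the design text gives backcrossing to C57BL6 for at least 7 generations, with WT mice bred from the same heterozygous line. The mice were 5 to 8 weeks old by the labels.

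The labels number 2 hybridizations, called series here, which differed in the labelling kit and in the RNA input. The 7 d arrays and replicates 1 to 3 of both genotypes at 14 d belong to series 1 (2 µg of RNA), while the 21 d arrays and replicate 4 of both genotypes at 14 d belong to series 2 (250 ng). Array medians lay between 4.16 and 4.27, arrays of 1 group correlated at r = 0.977 to 0.996, and WT 21 d replicate 3 had the smallest spread of values (SD 2.19, against 2.25 to 2.34 on the other arrays). The targeted gene followed the labels, with Mmp13 at 7.62 to 8.63 on the Mmp13-/- arrays and 10.26 to 12.02 on the WT arrays. Fibroblast markers were bright throughout (Col1a2 13.36 to 13.76, Col3a1 13.13 to 13.49), and all 9 measured fibroblast markers and all 8 macrophage markers had a mean above 4.22, the median of all probe sets, under which a probe set is called dim. The tissue was profiled whole, so the arrays do not say which cells expressed the 7 genes, and fewer cells of a type cannot be told apart from less RNA per cell.

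Granulation tissue is the new connective tissue of a wound, in which fibroblasts lay down and remodel matrix, some of them turn into contractile myofibroblasts, and vessels grow in behind inflammatory cells. Several of the 7 genes encode secreted proteins of such stroma. Cpxm1 and Cpxm2 encode secreted relatives of carboxypeptidase E with a discoidin domain, which lack residues needed for catalysis and have shown no peptidase activity. Itgbl1 encodes a secreted protein built of the EGF-like repeats found in integrin beta chains, and Smoc2 a matricellular protein of the SPARC family that binds calcium. Ecrg4 encodes the precursor of augurin, a peptide hormone-like protein of epithelia and the choroid plexus. Tmem98 encodes a membrane protein that binds the transcription factor Myrf, and Epha4 a receptor tyrosine kinase for ephrins of both the A and the B class.

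Of the 7 genes, 6 had an entry in the RefSeq promoter table (build GRCm38.p6), and Smoc2 had none. The sequences upstream of Cpxm1, Cpxm2 and Ecrg4 are shown because these 3 genes had a rise of about 4-fold or more in WT tissue and because their windows, or most of them, lie outside the annotated gene. Each is given 5' to 3' on the strand of its gene and ends at the last base before the annotated gene. Capitals mark matches to the 7 motifs searched on both strands, a match on the opposite strand being read as its reverse complement. The motifs were TATAAA, the letters of the TATA element, GGAATG for TEAD factors, TGANTCA for AP-1, CAGACA for SMAD factors, TGTGGT for RUNX factors, GGGCGG for Sp1 and, last, CCAAT for the nuclear factor Y element. Cpxm1 lies at chr2:130397630-130397879 (minus strand), Cpxm2 at chr7:132154766-132154991 (minus strand) and Ecrg4 at chr1:43730352-43730601 (plus strand).
Cpxm1: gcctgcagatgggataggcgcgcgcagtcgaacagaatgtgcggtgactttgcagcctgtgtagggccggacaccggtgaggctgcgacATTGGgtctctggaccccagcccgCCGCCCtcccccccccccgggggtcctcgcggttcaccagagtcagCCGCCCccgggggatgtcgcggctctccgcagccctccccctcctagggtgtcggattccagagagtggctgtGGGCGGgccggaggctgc
Cpxm2: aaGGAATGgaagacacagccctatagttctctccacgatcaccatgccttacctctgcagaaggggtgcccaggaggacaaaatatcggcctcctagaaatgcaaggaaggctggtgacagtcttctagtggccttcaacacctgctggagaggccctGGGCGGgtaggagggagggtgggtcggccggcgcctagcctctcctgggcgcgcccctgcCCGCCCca
Ecrg4: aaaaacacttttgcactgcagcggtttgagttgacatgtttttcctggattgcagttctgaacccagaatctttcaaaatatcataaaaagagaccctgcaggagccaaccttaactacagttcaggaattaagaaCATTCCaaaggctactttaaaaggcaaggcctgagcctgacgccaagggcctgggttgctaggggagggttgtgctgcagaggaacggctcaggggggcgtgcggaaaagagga

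In the table's window of 250 bases, Cpxm2 and Ecrg4 each held 1 GGAATG, a motif present in 12.6% of 32841 promoters, and the other 4 promoters held none. GGGCGG, present in 32.7% of promoters, was found in all but Ecrg4, and CCAAT, present in 33.9%, in Cpxm1, Itgbl1, Tmem98 and Epha4. TATAAA (12.4% of promoters), TGANTCA (6.75%), CAGACA (17.1%) and TGTGGT (14.0%) were in none of the 6 windows. The share of G and C ran between 42.4% (Itgbl1) and 74.8% (Tmem98), with 48.4% for Ecrg4, 64.0% for Cpxm2, 66.0% for Epha4 and 70.8% for Cpxm1, against a median of 52.4% over all promoters. The 6 windows thus had no motif in common. A match is a description of the letters and not a binding site.

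Cpxm2 had the widest range of the 7 genes. At 7 d Cpxm2 was at 4.02, 3.07 and 3.63 in Mmp13-/- tissue and at 2.74, 3.65 and 3.79 in WT tissue, below the median probe set. At 14 d Cpxm2 reached 7.18, 7.61, 7.33 and 7.78 in Mmp13-/- tissue and 7.44, 7.46, 7.23 and 8.10 in WT tissue. At 21 d Cpxm2 was at 8.33, 7.85, 8.16 and 7.29 in Mmp13-/- tissue and at 8.88, 8.73, 9.12 and 8.42 in WT tissue. The genotypes overlapped at 7 d and 14 d, and at 21 d the Mmp13-/- arrays all lay below the WT arrays. The change between 7 d and 14 d was 3.76 (SE 0.27, 13.6-fold) in Mmp13-/- tissue and 4.02 (SE 0.27, 16.3-fold) in WT tissue. The 7 d values behind these folds lay below the median probe set, and whether they stood above background was not tested, so the folds are those of the signals only. These values and those of the other genes for the same days chose the genes and are given with no test. A dimmer probe set of Cpxm2 changed by 1.35 (SE 0.20) and 1.74 (SE 0.20).

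Cpxm1, its nearest relative, was bright on every array, with a probe set mean of 9.71, above that of 96.7% of probe sets. At 7 d Cpxm1 was at 9.06, 9.49 and 9.17 in Mmp13-/- tissue and at 8.33, 8.72 and 7.94 in WT tissue. At 14 d Cpxm1 was at 10.18, 9.61, 10.01 and 9.19 in Mmp13-/- tissue and at 10.22, 10.08, 10.54 and 10.10 in WT tissue. At 21 d Cpxm1 was at 10.26, 9.90, 10.09 and 9.71 in Mmp13-/- tissue and at 10.41, 10.00, 10.20 and 10.40 in WT tissue. The Mmp13-/- arrays were all higher than the WT arrays at 7 d and overlapped them later. The change between 7 d and 14 d was 0.62 (SE 0.20, 1.54-fold) in Mmp13-/- tissue, where the arrays of both days overlapped because of replicate 4 of 14 d, and 2.02 (SE 0.20, 4.06-fold) in WT tissue. Within series 1, with 3 arrays per group, it was 0.69 in Mmp13-/- and 1.95 in WT tissue.

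Itgbl1 and Smoc2 had the same order of groups as Cpxm1 at 7 d. At 7 d Itgbl1 was at 6.07, 6.33 and 6.26 in Mmp13-/- tissue and at 5.16, 5.37 and 5.65 in WT tissue. At 14 d Itgbl1 was at 7.56, 7.49, 7.82 and 6.88 in Mmp13-/- tissue and at 7.69, 7.69, 7.98 and 8.02 in WT tissue. At 21 d Itgbl1 was at 8.15, 7.67, 8.10 and 7.86 in Mmp13-/- tissue and at 8.63, 8.44, 8.17 and 8.01 in WT tissue. The arrays of 7 d did not overlap between genotypes and those of 14 d and 21 d did, with Mmp13-/- 14 d replicate 4 the lowest after 7 d. Itgbl1 changed between 7 d and 14 d by 1.28 (SE 0.19, 2.43-fold) in Mmp13-/- tissue and by 2.52 (SE 0.19, 5.72-fold) in WT tissue.

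At 7 d Smoc2 was at 5.65, 5.85 and 5.71 in Mmp13-/- tissue and at 4.19, 5.03 and 5.08 in WT tissue. At 14 d Smoc2 was at 6.57, 6.44, 7.22 and 6.78 in Mmp13-/- tissue and at 7.26, 7.43, 7.17 and 7.41 in WT tissue. At 21 d Smoc2 was at 7.73, 7.26, 7.49 and 7.29 in Mmp13-/- tissue and at 8.37, 8.37, 7.65 and 7.97 in WT tissue. All Mmp13-/- arrays were above the WT arrays at 7 d, and at each later day a single array (Mmp13-/- 14 d replicate 3 and Mmp13-/- 21 d replicate 1) reached into the WT range. The change between 7 d and 14 d was 1.0 (SE 0.22, 1.99-fold) in Mmp13-/- tissue and 2.53 (SE 0.22, 5.78-fold) in WT tissue. The dimmer probe set of Smoc2 changed by 0.63 (SE 0.25) in Mmp13-/- and 1.82 (SE 0.25) in WT tissue, with both days overlapping in each genotype. This probe set differed between the series: in WT tissue at 14 d it was at 6.27, 5.78 and 5.62 in series 1 and at 4.26 in series 2.

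Ecrg4 was higher at each later day in both genotypes. At 7 d Ecrg4 was at 4.73, 4.44 and 4.88 in Mmp13-/- tissue and at 3.79, 4.53 and 4.79 in WT tissue. At 14 d Ecrg4 was at 6.75, 6.90, 6.41 and 7.32 in Mmp13-/- tissue and at 6.95, 6.89, 7.06 and 7.74 in WT tissue. At 21 d Ecrg4 was at 8.21, 7.76, 8.18 and 8.19 in Mmp13-/- tissue and at 8.90, 8.55, 8.69 and 8.26 in WT tissue. The genotypes overlapped at 7 d and 14 d and did not overlap at 21 d, where the Mmp13-/- arrays were lower. Between 7 d and 14 d Ecrg4 changed by 1.99 (SE 0.20, 3.96-fold) in Mmp13-/- tissue and by 2.61 (SE 0.20, 6.12-fold) in WT tissue. Its second probe set changed by 1.64 (SE 0.24) and 1.97 (SE 0.24), and the third one, which is dim, by 0.16 (SE 0.16) and 0.53 (SE 0.16).

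Tmem98 and Epha4, the genes for membrane proteins, had the smallest changes in WT tissue. At 7 d Tmem98 was at 6.67, 6.93 and 6.88 in Mmp13-/- tissue and at 6.40, 6.50 and 6.48 in WT tissue. At 14 d Tmem98 was at 7.74, 7.68, 8.01 and 7.25 in Mmp13-/- tissue and at 7.86, 7.82, 7.89 and 7.41 in WT tissue. At 21 d Tmem98 was at 7.64, 6.87, 7.40 and 7.10 in Mmp13-/- tissue and at 7.66, 7.30, 7.55 and 7.14 in WT tissue. The genotypes were apart at 7 d only, and replicate 4 of 14 d, the array of series 2, was the lowest of its day in both genotypes. The change between 7 d and 14 d was 0.97 (SE 0.16, 1.96-fold) in Mmp13-/- tissue and 1.41 (SE 0.16, 2.66-fold) in WT tissue.

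At 7 d Epha4 was at 3.64, 3.70 and 4.18 in Mmp13-/- tissue and at 3.80, 4.02 and 4.16 in WT tissue, all below the median probe set. At 14 d Epha4 was at 5.06, 5.33, 5.27 and 5.22 in Mmp13-/- tissue and at 4.92, 4.99, 5.04 and 5.18 in WT tissue. At 21 d Epha4 was at 4.88, 4.72, 4.78 and 5.07 in Mmp13-/- tissue and at 5.29, 5.23, 4.92 and 4.96 in WT tissue. The genotypes overlapped on each day. Epha4 was the gene of the 7 whose change between 7 d and 14 d was higher in Mmp13-/- tissue (1.36, SE 0.14, 2.56-fold) than in WT tissue (1.01, SE 0.14, 2.02-fold). Of its other 4 probe sets, all dim, 3 also had a positive change of over 0.5 in both genotypes (0.71, 1.91 and 1.39 in Mmp13-/- tissue, 0.56, 1.70 and 1.12 in WT tissue), and the dimmest stayed between 1.74 and 2.67 on all arrays.

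**Figure D1:**
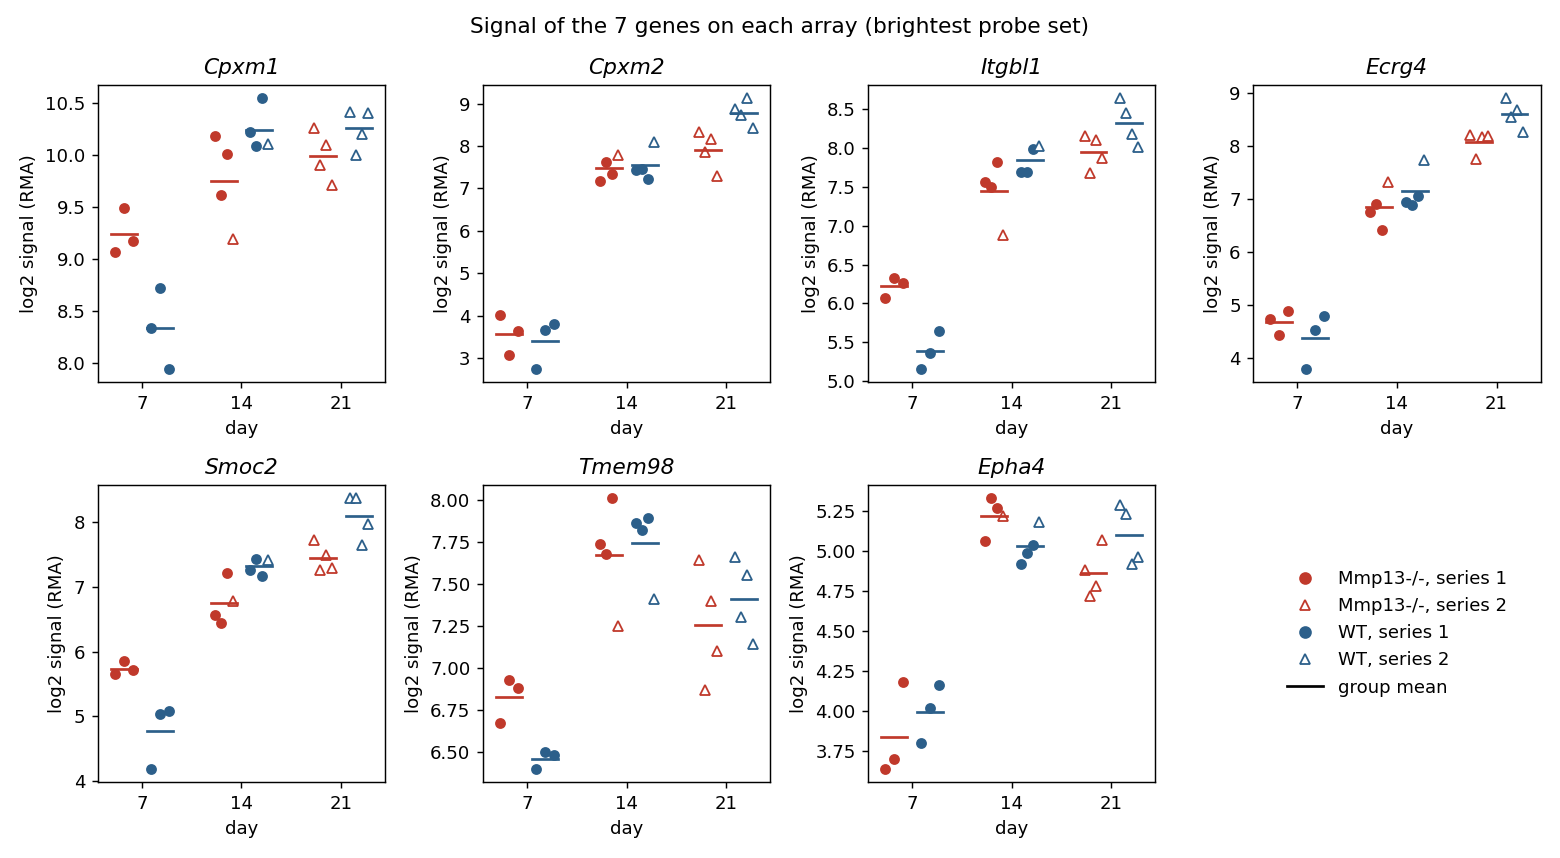
Log2 signal (y axis, RMA) of the brightest probe set of each of the 7 genes on each array by day (x axis), with Mmp13-/- arrays in red left of WT arrays in blue, circles for hybridization series 1, open triangles for series 2 and lines for group means. At 7 d the Mmp13-/- arrays of Cpxm1, Itgbl1, Smoc2 and Tmem98 lie above all WT arrays, and at 21 d the Mmp13-/- arrays of Cpxm2 and Ecrg4 lie below all WT arrays.

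Across the 7 genes, the median change between 7 d and 14 d was 1.28 in Mmp13-/- tissue and 2.52 in WT tissue, against 0.00 and -0.01 over all probe sets. The arrays of 14 d lay above those of 7 d for 6 of the 7 genes in Mmp13-/- tissue (Cpxm1 being the other one) and for 7 of 7 in WT tissue, against 5.94% and 5.72% of all probe sets. As the genes were picked for this change, nothing is read from these counts.

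Between 14 d and 21 d the genes parted. The change in Mmp13-/- and WT tissue was 0.71 (SE 0.24) and 0.91 (SE 0.24) for Ecrg4 and 0.63 (SE 0.26) and 0.71 (SE 0.26) for Smoc2. For Itgbl1 it was 0.70 (SE 0.23) and 0.66 (SE 0.23). For Cpxm1 it was 0.59 (SE 0.24) and 0.36 (SE 0.24), and for Cpxm2 0.01 (SE 0.32) and 0.81 (SE 0.32). The other Cpxm2 probe set changed by 0.38 (SE 0.24) in Mmp13-/- and by 0.72 (SE 0.24) in WT tissue. Tmem98 had changes near 0 (-0.04 and 0.05, SE 0.19 each), and those of Epha4 were -0.43 (SE 0.17) in Mmp13-/- and -0.01 (SE 0.17) in WT tissue. Of the other Epha4 probe sets, all dim, the second gave 0.38 in Mmp13-/- tissue and the others -0.28, -0.65 and -0.07. On the brightest probe sets, the arrays of 21 d did not overlap those of 14 d for Ecrg4 and Smoc2 in both genotypes. For Cpxm2 this held in WT tissue, and on its other probe set in both genotypes. Of all probe sets, 7.3% and 7.29% were higher without overlap in Mmp13-/- and WT tissue. All 21 d arrays are of series 2, so these values lean on the single series 2 array of 14 d in each genotype, and they share the 14 d arrays with the values that chose the genes. Set against that series 2 array alone, the change of Itgbl1 was 1.07 in Mmp13-/- and 0.29 in WT tissue, that of Cpxm1 0.80 and 0.15, and that of Cpxm2 0.13 and 0.69. On the other Cpxm2 probe set it was 0.565 and 0.53. Without Mmp13-/- 14 d replicate 4 the change in Mmp13-/- tissue was 0.088 for Itgbl1 and 0.24 for Cpxm1. Without WT 14 d replicate 4 the change in WT tissue was 1.27 for Itgbl1 and 0.72 for Cpxm1.

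**Figure D2:**
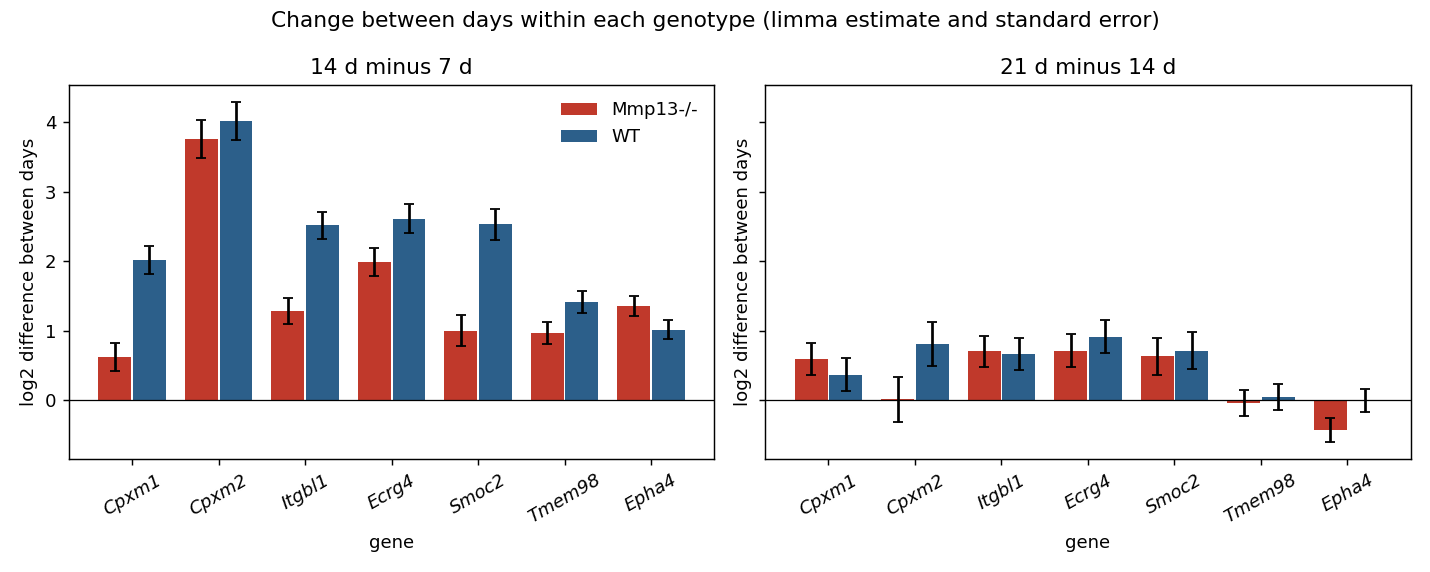
Log2 difference between days (y axis) for each gene (x axis), 14 d minus 7 d on the left and 21 d minus 14 d on the right, with Mmp13-/- bars in red left of WT bars in blue and standard errors of the limma fit. Cpxm2 has the tallest bars in the left panel (3.76 in Mmp13-/- and 4.02 in WT tissue), and Epha4 is the only gene there whose Mmp13-/- bar is the taller one.

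The genotypes were compared at each day with limma over all probe sets, with the hybridization series in the model. At 7 d the difference, Mmp13-/- minus WT, was 0.97 for Smoc2 (SE 0.23, adjusted p = 0.690), 0.91 for Cpxm1 (SE 0.21, adjusted p = 0.529), 0.83 for Itgbl1 (SE 0.20, adjusted p = 0.690) and 0.37 for Tmem98 (SE 0.16, adjusted p = 1). It was 0.31 for Ecrg4, 0.18 for Cpxm2 and -0.15 for Epha4 (adjusted p = 1 each). Without WT 7 d replicate 1 it was 0.023 for Ecrg4. None of the 7 genes was called at an adjusted p under 0.05, as 0.00888% of all probe sets were, and 4 of 7 were higher with an unadjusted p under 0.05, against 1.27% of all probe sets. The 4 genes with groups that did not overlap were all higher in Mmp13-/- tissue, which held for 3.93% of all probe sets. An exact permutation test of each of these gave p = 0.1 (two-sided), the smallest that 3 arrays against 3 allow. The 7 d arrays are among those that chose the genes, so these differences and those at 14 d are not independent of the choice.

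At 14 d the brightest probe set of each of the 7 genes had the sign opposite to that at 7 d. The difference was -0.57 for Smoc2 (SE 0.20), -0.49 for Cpxm1 (SE 0.18), -0.41 for Itgbl1 (SE 0.17), -0.32 for Ecrg4 (SE 0.18), -0.08 for Cpxm2 and Tmem98 and 0.19 for Epha4 (limma adjusted p = 0.999 each). None of the 7 genes passed the adjusted test (0.0178% of all probe sets did), and 3 of 7 were lower with an unadjusted p under 0.05, against 2.22% of all probe sets. Within series 1 the differences were -0.54 for Smoc2, -0.35 for Cpxm1 and -0.16 for Itgbl1, the last being the one that replicate 4 of both genotypes moved by over 1.5 times. The dimmer Smoc2 probe set gave -0.80 (SE 0.23, adjusted p = 0.764).

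The change of the genotype difference between 7 d and 14 d was -1.54 for Smoc2 (SE 0.31, limma adjusted p = 0.790), -1.40 for Cpxm1 (SE 0.27, adjusted p = 0.790), -1.23 for Itgbl1 (SE 0.26, adjusted p = 0.830), -0.63 for Ecrg4 (SE 0.28), -0.44 for Tmem98 (SE 0.21), -0.26 for Cpxm2 (SE 0.37) and 0.34 for Epha4 (SE 0.19; adjusted p = 1 for these 4). Without WT 7 d replicate 1 it was -0.34 for Ecrg4. Of 45037 probe sets, 0 (0%) were called by limma for this interaction with 2.29% at an unadjusted p under 0.05, and 4 of the 7 genes were negative with an unadjusted p under 0.05, against 1.37% of all probe sets. With the arrays of series 1 only, which hold both days in both genotypes, it was -1.51 for Smoc2 (adjusted p = 0.735), -1.26 for Cpxm1 (adjusted p = 0.822) and -0.99 for Itgbl1 (adjusted p = 0.627). The value compares the genotypes in the change that picked the genes, and a pick on the rise in 1 genotype would favour one sign, so it is a description.

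By their medians, endothelial, fibroblast, myofibroblast and keratinocyte markers had a positive genotype difference at 7 d and negative ones on both later days. The brightest probe sets of all 7 genes but Epha4 had these signs. So had the medians of the SPARC family, the ephrins, the Eph receptors and the relatives of carboxypeptidase E. The signs were therefore not particular to these markers. Several medians were near 0. In order of day, the medians were 0.15, -0.11 and -0.04 for myofibroblast markers and 0.05, -0.74 and -0.33 for keratinocyte markers. Of 8 measured endothelial markers (Pecam1, Cdh5, Kdr, Tek, Tie1, Emcn, Vwf and Cldn5), 7 had a positive genotype difference at 7 d (median 0.62), 8 a negative one at 14 d (median -0.27) and 7 a negative one at 21 d (median -0.39), with none called by limma. Their mean log2 signal per array was 6.29 to 6.94 in Mmp13-/- arrays and 5.23 to 6.97 in WT arrays at 7 d, 6.32 to 6.96 and 6.62 to 7.60 at 14 d, and 6.21 to 6.65 and 6.57 to 7.09 at 21 d. Of 9 measured fibroblast markers, 7 were positive at 7 d (median 0.06), 8 negative at 14 d (median -0.20) and 7 negative at 21 d (median -0.07), with Lum, a collagen-binding proteoglycan, called at 14 d (-0.94, SE 0.15, adjusted p = 0.0274), a call that was lost on leaving out 1 array in 7 of 8 cases, with values of -1.03 to -0.86. Its difference over the mean of the 3 days was -0.61 (adjusted p = 0.0111), called without any 1 of the 22 arrays. The mean signal of the fibroblast list was 10.91 to 11.12 in Mmp13-/- arrays and 10.70 to 10.99 in WT arrays at 7 d, 10.91 to 11.07 and 11.10 to 11.37 at 14 d, and 10.85 to 11.29 and 11.15 to 11.33 at 21 d. Of the other 9 marker lists (myofibroblasts, macrophages, neutrophils, T and B cells, keratinocytes, skeletal muscle, adipocytes, Schwann cells and chondrocytes), no gene was called between the genotypes on any day. Keratinocyte markers, of which 1 of 8 had a mean above the median probe set, averaged 3.29 to 3.44 in Mmp13-/- arrays and 3.29 to 5.23 in WT arrays at 14 d, and skeletal muscle markers 6.17 to 10.04 in Mmp13-/- arrays and 5.55 to 10.18 in WT arrays at 7 d. The part of these lists in the values of the 7 genes was not tested.

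At 21 d, on arrays outside the change that the rule names, all 7 differences were negative (median -0.37, against 0.00 over all probe sets, of which 49.6% were positive). The genes were chosen with earlier results of these data known. With group and series removed, 18 of their 21 pairwise correlations were positive, so the 7 signs are not separate observations. The difference was -0.88 for Cpxm2 (SE 0.24, 95% interval -1.39 to -0.37, limma adjusted p = 0.148), -0.65 for Smoc2 (SE 0.20, adjusted p = 0.197), -0.52 for Ecrg4 (SE 0.18, adjusted p = 0.261) and -0.37 for Itgbl1 (SE 0.17, adjusted p = 0.409). It was -0.26 for Cpxm1 (SE 0.18, adjusted p = 0.586), -0.24 for Epha4 (SE 0.13, adjusted p = 0.474) and -0.16 for Tmem98 (SE 0.14, adjusted p = 0.692). No gene was called (0.0488% of all probe sets were), and 4 of 7 were lower with an unadjusted p under 0.05, against 6.15% of all probe sets. On the brightest probe sets of Cpxm2 and Ecrg4 the Mmp13-/- arrays all lay below the WT arrays, as for 1.61% of all probe sets. The exact permutation p was 0.0286 for each (two-sided), the smallest that 4 arrays against 4 allow. On the other Cpxm2 probe set the genotypes overlapped (exact permutation p = 0.0571), and so they did on the second Ecrg4 probe set (exact permutation p = 0.171). For the brightest Smoc2 probe set the exact permutation p was 0.0571. The lowest adjusted limma p on leaving out 1 array was 0.0859 for Smoc2 (without WT 21 d replicate 3) and 0.10 for Cpxm2.

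Other probe sets of these genes gave -0.63 for Cpxm2 (SE 0.18, limma adjusted p = 0.167), -0.53 for Ecrg4 (SE 0.22, adjusted p = 0.338), -0.66 for Smoc2 (SE 0.23, adjusted p = 0.255) and 0.12 for the dim one of Ecrg4 at 21 d. Those of Epha4 did not run one way: the second gave 0.43 (SE 0.12, adjusted p = 0.166), with all Mmp13-/- arrays above all WT arrays, and the others -0.22, -0.30 and -0.35. The genotype difference of Cpxm2 moved by -0.80 between 14 d and 21 d (SE 0.34, limma adjusted p = 0.718) and that of Epha4 by -0.43 (SE 0.18, adjusted p = 0.713). On the other Cpxm2 probe set it moved by -0.34 (SE 0.26). On the second Epha4 probe set it moved by 0.13 (SE 0.17), and on its others by -0.20, -0.52 and -0.54. For the other 5 genes this change lay between -0.20 and 0.23 on the brightest probe sets. Of all probe sets, 0 (0%) were called for it by limma, with 6.58% at an unadjusted p under 0.05. In the negative direction these were 3.33%, where 2 of the 7 genes were by their brightest probe set.

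Averaged over the 3 days, the genotype differences lay between -0.26 for Cpxm2 (adjusted p = 0.823) and 0.05 for Cpxm1, with none of the 7 called by limma and 0 of 7 at an unadjusted p under 0.05, against 0.0688% and 6.56% of all probe sets.

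**Figure D3:**
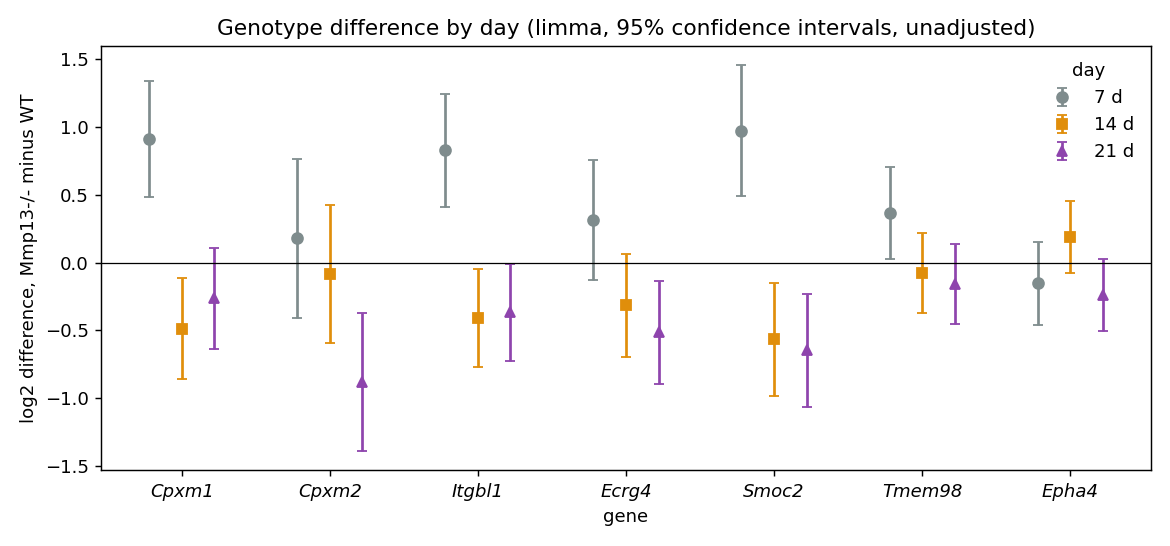
Log2 difference Mmp13-/- minus WT (y axis) for each gene (x axis) at 7 d (grey circles), 14 d (orange squares) and 21 d (purple triangles), with 95% confidence intervals of the limma fit before adjustment. Smoc2, Cpxm1 and Itgbl1 lie above 0 at 7 d (0.97, 0.91 and 0.83) and below 0 at 14 d and 21 d, and Cpxm2 lies lowest at 21 d (-0.88).

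The group means of all 15 probe sets were set side by side. In WT tissue all 15 were higher at 21 d than at 7 d, and the size of the difference varied between probe sets of the same gene. The bright Cpxm2 probe set had means of 3.39 at 7 d and 8.79 at 21 d, and its other one of 4.32 and 7.22. All 7 d arrays are of series 1 and all 21 d arrays of series 2, so day and series cannot be told apart in these means. In WT tissue at 14 d the bright Cpxm2 probe set was at 8.10 in series 2, against a mean of 7.38 in series 1.

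**Figure D4:**
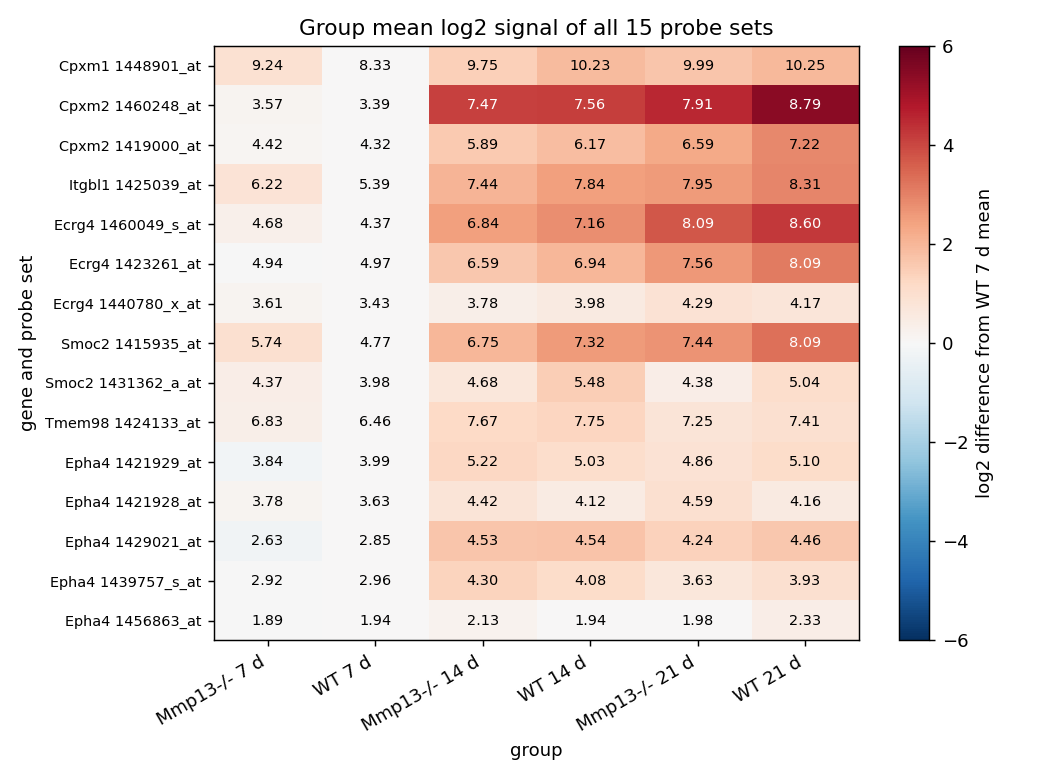
Group mean log2 signal (number in each cell) of all 15 probe sets (rows) in the 6 groups (columns), coloured by the difference from the WT mean at 7 d. The bright Cpxm2 probe set runs over the widest range, with 3.57 in Mmp13-/- arrays and 3.39 in WT arrays at 7 d and 7.91 in Mmp13-/- arrays and 8.79 in WT arrays at 21 d.

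The relatives of the 7 genes were looked at as families. Of 6 measured relatives of carboxypeptidase E, 4 had a positive change over the first step (7 d to 14 d) in Mmp13-/- tissue (median 0.21) and none was called (0.628% of all probe sets were), with 0.35 (SE 0.10, limma adjusted p = 0.184) for Aebp1, which encodes a secreted collagen-binding protein with a discoidin domain like that of Cpxm1 and Cpxm2. In WT tissue 5 of 6 were positive (median 0.57), and Aebp1 rose by 0.73 (SE 0.10, adjusted p = 6.04e-04), where 1.7% of all probe sets were called. Whether the genotypes differed in this change was tested by the interaction, which called 0 (0%) of all 45037 probe sets. No gene of the 6 families was thus called, and nothing is read from that. The largest genotype differences in this family were 0.82 for Cpe at 7 d (SE 0.36, adjusted p = 1) and -0.57 for Cpz at 14 d (SE 0.18, adjusted p = 0.909).

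Over the first step (7 d to 14 d), 0.628% of all probe sets were called in Mmp13-/- and 1.7% in WT tissue. Of 7 measured genes of the SPARC family, which holds Smoc2, none was called in Mmp13-/- tissue and 1 rose in WT tissue. This was Sparcl1, a matricellular protein of vessels and stroma, with a change of 0.19 (SE 0.38) in Mmp13-/- tissue and of 1.62 (SE 0.38, limma adjusted p = 0.0322) in WT tissue. Without WT 7 d replicate 1 its rise in WT tissue was 0.90 and was not called. On leaving out 1 array, its call was kept in 3 of 7 cases. Sparc itself, the founding member, had a mean log2 signal of 12.97, and Smoc1, the closest relative of Smoc2, one of 4.64. Among 8 integrin beta subunits, none was called in Mmp13-/- tissue, while in WT tissue Itgb5, a subunit of a vitronectin receptor, rose by 0.65 (SE 0.14, adjusted p = 0.0136) and Itgb7, a subunit of leukocyte homing receptors, fell by 0.75 (SE 0.13, adjusted p = 0.00363). Itgb7 was lower again at 21 d than at 14 d in WT tissue (-1.0, SE 0.15, adjusted p = 0.0191), where 0.42% of all probe sets were called, a value that rests on the WT 14 d array of series 2. The call was lost with the arrays of series 2 only (-0.94, adjusted p = 0.912) and with the replicate number as a block (-0.73, adjusted p = 0.136).

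Of 12 measured Eph receptors other than Epha4, none was called over the first step (7 d to 14 d) in Mmp13-/- tissue (median 0.07), where Epha3 changed by 1.66 (SE 0.44, limma adjusted p = 0.116) and Ephb3 by 0.59 (SE 0.16, adjusted p = 0.113). In WT tissue 2 rose, Epha3 by 2.70 (SE 0.44, adjusted p = 0.00220) and Ephb3 by 0.89 (SE 0.16, adjusted p = 0.00406), and the median was -0.05. At 21 d all 12 receptors had a negative genotype difference (median -0.27), as the brightest Epha4 probe set had, while 49.6% of all probe sets were positive. Epha3 was at -1.48 (SE 0.39, limma adjusted p = 0.134), and none was called. Of these receptors 7 had a mean signal below the median over all probe sets. Of 8 ephrins, their ligands, 7 had a positive genotype difference at 7 d and 6 a negative one at 14 d and at 21 d, none called. Efnb2, a ligand of vessels that binds Epha4, was at 0.52 at 7 d (SE 0.14, adjusted p = 0.925) and at -0.48 at 21 d (SE 0.12, adjusted p = 0.113). Of 6 reported partners of Tmem98 and Ecrg4 (Myrf, Frat1, Frat2, Tlr4, Ly96 and Cd14), none was called in any comparison, and the median genotype difference lay between -0.06 and 0.03 at the 3 days.

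Of 8 contractile genes of myofibroblasts, 7 had a positive change over the same week in each genotype (median 0.64 in Mmp13-/- and 0.81 in WT tissue). By the adjusted limma test, Tagln (1.88) and Myl9 (1.66) rose in Mmp13-/- tissue, and Acta2 (1.14), Tagln (1.83) and Myl9 (1.98) in WT tissue. Of all probe sets, 0.628% and 1.7% were called in Mmp13-/- and WT tissue. For a difference between the genotypes in this change, 0 (0%) of all probe sets were called, and so none of the marker genes. Of 9 fibroblast genes, 3 had a positive change in Mmp13-/- tissue (median -0.03) and 6 in WT tissue (median 0.16). Dcn, decorin, fell by 0.48 in Mmp13-/- tissue, and Pdgfra (0.75) and Pdgfrb (1.57), receptors of fibroblasts and mural cells, rose in WT tissue. Leaving out 1 array, the call of Dcn was lost in 4 of 7 cases and that of Pdgfrb in 2 of 7. Without WT 7 d replicate 1 the change of Acta2 in WT tissue was 0.69, and its call was lost on leaving out 1 array in 5 of 7 cases. Of 8 endothelial genes, 6 had a positive change in Mmp13-/- tissue (median 0.17) and 7 in WT tissue (median 1.27). Of 8 keratinocyte genes, 6 had one in Mmp13-/- tissue (median 0.09) and 8 in WT tissue (median 0.86). Of 6 skeletal muscle genes, 5 had one in Mmp13-/- tissue (median 0.30) and 6 in WT tissue (median 0.75). The 4 adipocyte genes had a median of -0.61 in Mmp13-/- and -0.98 in WT tissue, and no gene of these 4 lists was called. The part of any of these cell types in the changes of the 7 genes was not tested.

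The genes whose signal was most like that of each member were found by correlation over the 22 arrays. Cpxm2 was nearest to Igfbp2 (Pearson r = 0.98), Col12a1 and Sfrp1, and Ecrg4 to Col8a2 (r = 0.97), Sfrp1 and Fbn2. Smoc2 was nearest to Svep1 (r = 0.96), Sfrp1 and Mfap4, and Itgbl1 to Mfap4 (r = 0.95), Fzd2 and Cdh11. Cpxm1 was nearest to Hmox1 (r = 0.91), Adamts12 and Cdh11, Tmem98 to Eln (r = 0.89), Ndnf and Fbln1, and Epha4 to Igfbp2 (r = 0.92), Rgs4 and Nuak1. Sfrp1 encodes a secreted Wnt antagonist, Mfap4, Fbn2 and Eln proteins of elastic fibres, and Cdh11 a cadherin of mesenchymal cells. The 5 genes with the highest mean r to all 7 were Cdh11 (0.91), Igfbp2 (0.89), Tmem119, Mfap4 and Fzd2. The arrays share groups and series, and the r values are given as a description.

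Among the 7 genes themselves, the 21 pairwise correlations over 22 arrays lay between 0.61 and 0.97 (median 0.83). After the means of group and series were removed, they lay between -0.21 and 0.65 (median 0.35), with 18 of 21 positive, so that arrays of a group with more of one of these genes tended to have more of the others. These are descriptions over arrays that share a normalization, with no test.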

How the data were processed

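RNA of whole granulation tissue was measured on 22 Affymetrix arrays, 3 or 4 per genotype and day. The authors deposited log2 signals made by RMA, which corrects background, normalizes between arrays and summarises the probes of a probe set, with 2 decimals; the sources used here give neither its version nor whether all arrays went into 1 run, and such normalization can hide a shift common to all genes. Of 45101 probe sets, 64 controls were left out, and the platform annotation gave 1 gene to 34945 of the other 45037, several to 932 and none to 9160. A gene was represented by its brightest probe set annotated to it alone. R 4.3.3 and limma 3.58.1 (lmFit, eBayes) fitted the 6 groups plus the hybridization series over all 22 arrays, with Benjamini-Hochberg adjustment over 45037 probe sets and a threshold of 0.05. Single differences were also tested by exact two-sided permutation. The number of arrays limits the precision.

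The members and gene lists (6 families, 11 marker lists) were chosen with earlier results of these data known. All probe sets of the members, the called genes of each list (or up to 2 with the largest difference) and the genes most correlated with each member were named; marker genes, Sparc, Smoc1 and Cpe were named besides. Series 2 fits were chosen after seeing the data. Alternatives were the fit without the series term, median centring, no dim probe sets, trend and robust eBayes, a replicate block, the mean of a gene's probe sets, subsets of arrays and leaving out each array. The fit was tested on simulated data. Motifs were searched with Python 3.11.15.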

Additional observations from a re-analysis of the deposited data

Results flagged for a closer look

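Among 60 groups of 4 arrays (15 probe sets in 4 groups), 5 held an array far from the other 3 by Dixon's criterion at its 95% level, where chance gives a share of about 0.05. In Mmp13-/- tissue at 21 d, the bright Ecrg4 probe set was at 7.76 on replicate 2, against 8.18 to 8.21 on the other arrays, and the dimmer Smoc2 probe set at 4.71 on replicate 4, against 4.24 to 4.31. In WT tissue at 14 d, replicate 4 was low for Tmem98 (7.41, against 7.82 to 7.89) and for the second Epha4 probe set (3.69, against 4.23 to 4.30); this is the WT 14 d array of series 2. In WT tissue at 21 d, the dimmest Epha4 probe set was at 2.67 on replicate 3, against 2.19 to 2.23.

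Dim probe sets of 2 genes had genotype groups that did not overlap in opposite directions on different days. The share of all probe sets that did so was not counted, so nothing is read from it. On single days, 3.93% of all probe sets were higher without overlap at 7 d, and 1.61% were lower without overlap at 21 d. The Epha4 probe set is the dimmest of the 15, with 1.22% of all probe sets dimmer. For Ecrg4 the difference, Mmp13-/- minus WT, was 0.18 at 7 d and -0.20 (-0.195 unrounded) at 14 d, and the change of the difference was not called (limma adjusted p = 1). For Epha4 it was 0.19 (0.1875 unrounded) at 14 d and -0.35 at 21 d, and the change was not called either (limma adjusted p = 0.588).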

How the results depend on the processing

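No member was called between the genotypes, or for either change of the genotype difference, under any setting tried. Replicate numbers shared by the genotypes were checked for pairing by correlating deviations from the group means. Of 11 pairs, 6 had a correlation over 0.1 (range -0.16 to 0.61), and 3 matched their own number best. The highest was that of 14 d replicate 4, which is of series 2 in both genotypes, and the series was left in the deviations. The check therefore cannot tell whether the samples were paired. With a replicate block, 4 probe sets were called between 14 d and 21 d in Mmp13-/- tissue (36 without it) and 1 in WT tissue (189), where the members' median was 0.31 (0.66); the block changed no other count by over 1.5 times. Without the series term these counts were 2523 and 4657, and from series 2 alone 0 and 0, with a members' median of 0.29 in WT tissue; without dim probe sets the WT count was 324. Calls between the genotypes were 4 at 7 d (2 without dim probe sets, 7 with trend and robust eBayes, 7 from that day's arrays), 8 at 14 d (4 without the series term, 26 from that day's arrays) and 22 at 21 d (7 without the series term, 35 centred, 9 without dim probe sets, 13 with trend and robust eBayes, 10 from that day's arrays). In Mmp13-/- tissue 283 probe sets were called between 7 d and 14 d, and 574 from series 1 alone. The members' median change between 7 d and 14 d in WT tissue was 2.02 with the mean of a gene's probe sets, and with that setting the change of the Smoc2 difference between 14 d and 21 d was 0.031, against -0.08. Leaving out 1 array, calls ranged from 1 to 8 at 7 d, 4 to 6 at 14 d, 22 to 110 at 21 d (110 without WT 21 d replicate 3) and 7 to 35 for the mean of the days (7 without Mmp13-/- 7 d replicate 3). They ranged from 0 to 2 for the change of the difference between 7 d and 14 d, 79 to 309 for 7 d to 14 d in Mmp13-/- tissue (79 without 14 d replicate 3) and 425 to 607 in WT tissue, 1 to 136 for 14 d to 21 d in Mmp13-/- tissue (1 without 14 d replicate 4, 136 without 21 d replicate 3) and 44 to 671 in WT tissue (44 without 14 d replicate 4, 671 without 21 d replicate 4). The members' median change between 14 d and 21 d ranged from 0.088 to 0.68 in Mmp13-/- tissue (0.088 without 14 d replicate 4) and 0.55 to 0.77 in WT tissue. Signs turned for Cpxm2 at 7 d (-0.15 to 0.43) and its change to 14 d (-0.51 to 0.064), for the change between 14 d and 21 d of Cpxm2 (-0.19 to 0.21) and Tmem98 (-0.17 to 0.088) in Mmp13-/- tissue and of Tmem98 (-0.038 to 0.14) and Epha4 (-0.070 to 0.12) in WT tissue, for the mean of the days of Cpxm1 (-0.012 to 0.12) and Itgbl1 (-0.022 to 0.099), and for the change of the difference between 14 d and 21 d of Itgbl1 (-0.20 to 0.15), Smoc2 (-0.23 to 0.090) and Tmem98 (-0.21 to 0.043). Beyond the effect of fewer arrays or probe sets, the cause was not tested. Dim probe sets (5 of 15) and 3 or 4 arrays per group limit what could be called.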
